A study of Mus musculus with 12 samples.

Results

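RAW264.7, a mouse macrophage line that was immortalized from Balb/c cells and can form osteoclasts, was stimulated with RANKL in vehicle medium (MEM-alpha), and its RNA at day 3 was set against that at day 1. The comparison holds 4 of the 12 libraries of the series: vehicle day 3 replicates 1 and 2, and vehicle day 1 replicates 1 and 2. The labels give RANKL at 100 ug/ml for all cells, a unit that could not be checked here and may be meant as ng/ml, so both days share it and no library without RANKL was analysed here. The other 8 libraries are cells with culture supernatant of the bacterium L. reuteri at days 1, 3 and 5 and vehicle cells at day 5. They serve here to estimate spread or are given beside the vehicle values. RAW264.7 is 1 cell line, and no label says that replicates 1 and 2 are separate cultures, so p-values here rest on a spread between libraries that could be technical only. The question the comparison addresses is which transcripts differ between early and later RANKL stimulation without bacterial products.

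RANKL binds its receptor RANK on macrophage-like precursors, which recruits TRAF adaptors and activates NF-kB and MAP kinases. AP-1 proteins and calcium signals from ITAM-bearing receptors then lead to NFATc1, the transcription factor regarded as the master regulator of the osteoclast. Precursors fuse into giant cells, attach to bone through podosomes, pump acid with the vacuolar ATPase and digest collagen with cathepsin K. Osteoclasts are also known for many mitochondria and for losing part of the macrophage programme.

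Replicate 2 of day 3 stood apart from the other 3 libraries and is kept apart from replicate 1 below. Nuclear protein-coding genes took 85.7% of reads in day 3 replicate 1 and 38.1% in day 3 replicate 2, against 85.8% and 85.6% in the day 1 libraries. Mitochondrially encoded genes took 4.93% and 28.3%, against 5.11% and 5.33%. Depth was 16265588 and 8646921 reads at day 3, against 16781080 and 14158589 at day 1. The deposited values are log2(normalized count + 8), and a normalized count proved to be the library's reads scaled to the same total in every library, 12709500. In replicate 2 of day 3 the large share of mitochondrial and nuclear noncoding RNA therefore lowers the normalized counts of most other genes. The median log2 difference from day 1 over all 14715 tested genes was 0.04 in replicate 1 and -1.68 in replicate 2. Differences of replicate 2 are for this reason also given relative to that median of -1.68. After rescaling to nuclear protein-coding reads the median of replicate 2 was -0.55, and for some genes the 2 scales gave opposite signs. Atp6v1b2, for instance, was 0.28 relative to the all-gene median and -0.23 after rescaling. In bulk RNA fewer cells of a type and less RNA per cell cannot be told apart.

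"Rose" and "fell" below refer to a Benjamini-Hochberg adjusted p under 0.05 in limma for day 3 replicate 1 against the mean of the 2 day 1 libraries, on the log2(normalized count + 1) scale, which understates changes of genes with few reads. Day 3 replicate 1 is a lone library in that contrast, and it is assumed to vary as the day 1 libraries did. In it 1402 genes rose (9.53% of those tested) and 1353 fell (9.19%), together 2755 genes or 18.7%. Of these, 230 rose and 403 fell by more than 1 log2 unit. When both day 3 libraries were fitted as 1 group, limma called 0 genes (0%), with 288 at an unadjusted p under 0.05, and limma-voom also called 0, with 259. The count of 2755 fell to 423 in a fit with a term for the low-mRNA library at each of days 3 and 5, called the low-mRNA fit below (128 higher and 295 lower, 0.87% and 2% of genes), to 1184 with only the 4 vehicle libraries, to 1071 and 1072 without supernatant day 1 replicate 1 and 2, and to 0 without either vehicle day 1 library. Every call below rests on those libraries. Counts of rises and falls in the gene lists below, those of the closing section included, are to be read against 9.53% and 9.19% of all tested genes.

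In replicate 2, limma called 2028 genes higher (13.8%) and 10999 lower (74.7%), a split of 15.6% higher among calls that became 35.8% after rescaling to nuclear protein-coding reads and 44.5% after quantile normalization. Both day 3 libraries lay above both day 1 libraries for 1539 genes (10.5%) and below both for 4961 (33.7%). Calls of replicate 2 carry the shift of the whole library, so no direction is read from them alone. Of the 1402 genes that rose in replicate 1, 364 had replicate 2 above both day 1 libraries, as 17.7% of all genes had. Of the 1353 that fell, 1297 had it below both, as 79.8% of all genes had. The differences of both replicates share the day 1 libraries. Where a gene is given by a difference only, that of replicate 1 comes first and the value in parentheses is that of replicate 2 relative to the all-gene median. Such a value between 0 and 1.68 thus stands for a replicate 2 library below the day 1 mean on the deposited scale.

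The largest rise at day 3 among genes that passed in both fits, the low-mRNA fit included, was that of Acp5, which encodes TRAP, the acid phosphatase used to stain osteoclasts. Acp5 had 1068 and 675 normalized counts in day 3 replicates 1 and 2, against 12.1 and 20.6 in the day 1 libraries. The difference of replicate 1 was 5.99 log2 units (SE 0.30, limma adjusted p = 0.00169), and that of replicate 2 was 5.33. Both day 3 libraries were far above both day 1 libraries. Prdm1, the repressor Blimp1 that silences inhibitors of osteoclast formation, had 84.4 and 54.4 normalized counts in day 3 replicates 1 and 2, against 2.27 and 0 in the day 1 libraries. Its 2 day 1 libraries held 3 and 0 reads, against 108 and 37 reads at day 3, a ratio of 68.5 for replicate 1 over the pooled day 1 reads (95% exact binomial interval 22.8 to 337, counting error only).

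The other 8 of the 10 largest rises include enzymes, a proton pump subunit and a chemokine receptor. Values are given for replicate 1 before replicate 2. Coq8a, an atypical kinase needed for coenzyme Q synthesis, had 859 and 316 normalized counts at day 3, against 49.2 and 53.9 at day 1 (log2 difference 4.03, limma adjusted p = 0.00268). Matk, a kinase that restrains Src family kinases, had 102 and 157 normalized counts at day 3, against 4.54 and 6.28 at day 1, with replicate 2 the higher of the day 3 libraries. Atp6v0d2, a proton pump subunit that also serves precursor fusion, had 4612 and 849.6 normalized counts at day 3, against 288 and 309 at day 1, and Ctsk, the protease cathepsin K, had 2085 and 581 normalized counts at day 3, against 169.7 and 169.7 at day 1. In Atp6v0d2 and Ctsk the groups did not overlap, but replicate 2 lay well below replicate 1. Ccr1, a chemokine receptor of osteoclast precursors, had 391 and 179 normalized counts at day 3, against 32.6 and 30.5 at day 1. Fam49a, a binder of the GTPase Rac1, 9130008F23Rik, and Akap6, an anchor of protein kinase A, rose by 3.55 (2.89), 3.26 (5.99) and 3.15 (3.87) log2 units. All 10 rises had both day 3 libraries above both day 1 libraries, which the rule that chose them required.

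Among the 10 largest falls, 2 were receptors of the TREM family that myeloid cells carry. Trem3 had 0 reads in both day 3 libraries, against 70 and 54 reads at day 1. With a count of 0 taken as 3 reads in replicate 1, Trem3 was 21.7-fold lower at day 3. With the 0 kept, the 95% exact binomial interval begins at 17.4-fold lower. Treml4 had 1 read in each day 3 library, against 126 and 94 at day 1, a ratio of 116-fold lower in replicate 1 (95% exact binomial interval 20.5 to 4589). Reads of these 2 receptors were all but absent at day 3 in both libraries.

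Ptgs2, the inducible cyclooxygenase, had 10.2 and 2.94 normalized counts in day 3 replicates 1 and 2, against 367 and 268 in the day 1 libraries. It fell by 4.82 log2 units (SE 0.23, limma adjusted p = 0.0016), and its noncoding neighbour Ptgs2os2, whose reads cannot be told apart from it where they overlap, fell by 3.44 (-4.27). Il13ra2, a decoy receptor for interleukin 13, had 53.1 and 13.2 normalized counts at day 3, against 602 and 611 at day 1, and Adh7, an alcohol dehydrogenase that acts on retinol, had 24.2 and 10.3 normalized counts at day 3, against 317 and 289 at day 1. The water and glycerol channel gene Aqp9 fell by 4.15 (-4.51) and the protease inhibitor gene Serpinb1a by 3.26 (-4.85), with 0 reads of either in replicate 2. Chac1, which degrades glutathione, had 8.60 and 4.41 normalized counts at day 3, against 124 and 81.7 at day 1. Trib3, a pseudokinase induced by ATF4, had 17.2 and 8.82 normalized counts at day 3, against 176 and 159.8 at day 1. Each of these 8 genes was lower in both day 3 libraries than in both day 1 libraries, as the rule required.

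**Figure D1:**
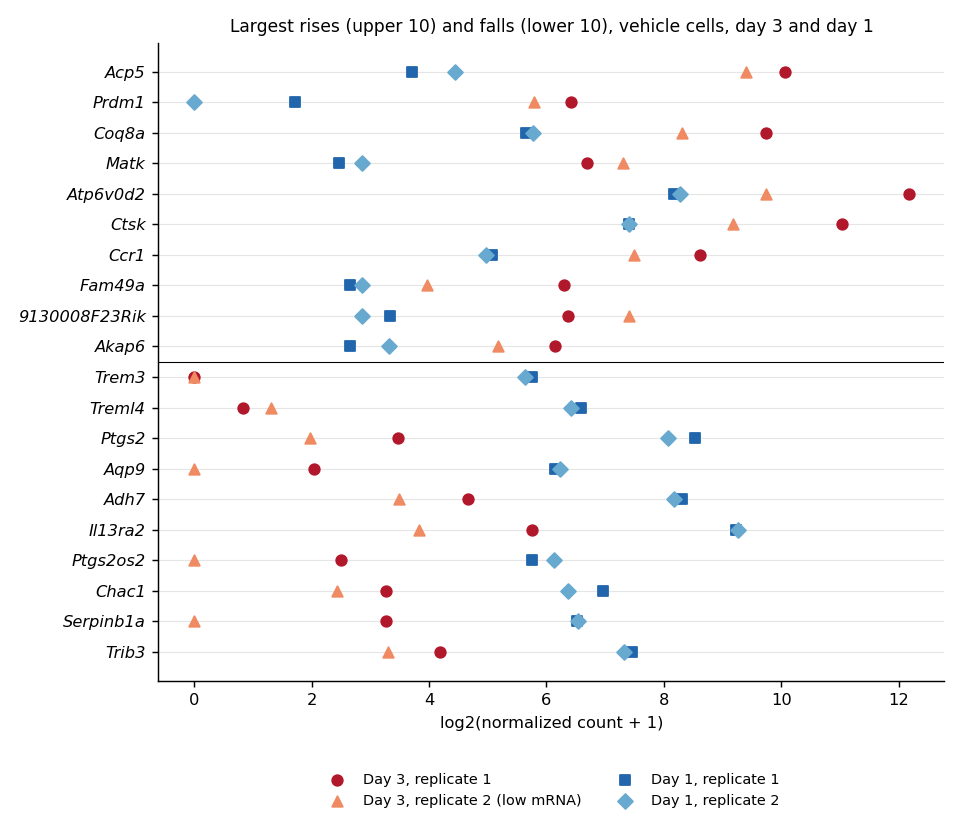
Level of the 10 largest rises (upper) and 10 largest falls (lower) in the 4 vehicle libraries, as log2(normalized count + 1). Red circles and orange triangles are day 3 replicates 1 and 2, blue squares and light blue diamonds day 1 replicates 1 and 2. Among the rises, Acp5 shows both day 3 libraries furthest from the day 1 mean (5.99 and 5.33 log2 units above). Among the falls, Trem3 stands at 0 in both day 3 libraries.

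Genes of RANK and its nearest signalling partners passed the test about as often as all tested genes, of which 18.7% did. Of 11 tested genes of RANK and proximal signalling, 2 rose, none fell and 9 did not pass (median 0.09, -0.09 in replicate 2 relative to all genes, 0 of the 2 rises kept in the low-mRNA fit), against a median of 0.04 over all genes. Tnfrsf11a, which encodes RANK, had 3365 and 682 normalized counts in day 3 replicates 1 and 2, against 2206 and 2448 in the day 1 libraries. Replicate 1 lay above both day 1 libraries by 0.53 log2 units (limma adjusted p = 0.0136) and replicate 2 below them, at -0.09 relative to the all-gene median. The adaptor gene Traf5 rose by 0.95, with 102 and 72.0 normalized counts at day 3, against 57.6 and 47.6 at day 1. Traf6, the adaptor that RANK signalling depends on, stood at 563 and 67.6 normalized counts at day 3, against 509.7 and 536 at day 1, and did not pass (difference 0.11).

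Of 25 tested transcription factors linked to NFATc1 and AP-1, 11 rose, 2 fell and 12 did not pass, with a median of 0.26 in replicate 1 and 0.72 in replicate 2 relative to all genes. 5 of the 11 rises and 1 of the 2 falls passed in the low-mRNA fit too. Nfatc1 had 6224 and 930.4 normalized counts in day 3 replicates 1 and 2, against 1423 and 1608 in the day 1 libraries. Replicate 1 rose by 2.04 log2 units (SE 0.10, limma adjusted p = 0.0016), whereas replicate 2 lay below both day 1 libraries on the deposited scale and 0.98 above the all-gene median. Fosl2, an AP-1 protein of the Fos family, showed the same order, with 7669.9 and 1104 normalized counts at day 3, against 2130.5 and 2156 at day 1, and a rise of 1.84. For both factors the direction in replicate 2 depends on the scale.

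Fos, the AP-1 protein without which mice form no osteoclasts, rose by only 0.39, with 2497 and 579 normalized counts at day 3, against 1887 and 1923 at day 1. Mitf, a partner of NFATc1 at osteoclast genes, rose by 0.80, with 3853 and 2759 normalized counts at day 3, against 2201 and 2219 at day 1, so that both day 3 libraries lay above day 1. Ppargc1b, a coactivator of mitochondrial biogenesis in osteoclasts, had 331 and 2099 normalized counts at day 3, against 152 and 134 at day 1: it rose by 1.21 in replicate 1 and stood far higher still in replicate 2. Jun, another AP-1 member, had 345 and 504 normalized counts at day 3, against 588 and 555 at day 1, and fell by 0.73, and Fosl1 fell by 1.25 (-0.62). The NF-kB genes on the list, Nfkb1, Nfkb2, Rel, Rela and Relb, did not pass, with Nfkb1 at 0.22 (-0.35) and Relb at 0.02 (0.72). AP-1 members thus went in both directions while the NF-kB subunits were not called.

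Negative regulators of osteoclast formation were mixed: of 18 tested, 2 rose, 6 fell and 10 did not pass (median -0.06, 0.14 in replicate 2 relative to all genes, 1 of the 2 rises and 2 of the 6 falls kept in the low-mRNA fit). Rbpj, the Notch pathway factor that restrains osteoclast formation, had 2709 and 676 normalized counts at day 3, against 6809.5 and 6453 at day 1, and fell by 1.29 (limma adjusted p = 0.00136). Bcl6, a repressor of osteoclast genes that Blimp1 silences, had 520.4 and 284 normalized counts at day 3, against 944 and 1029 at day 1, and fell by 0.92. Both were below day 1 in both day 3 libraries, Bcl6 at -0.11 relative to the all-gene median in replicate 2 and Rbpj at -1.61. Id3, an inhibitor of helix-loop-helix factors, had 3 and 0 reads at day 3, against 23 and 29 at day 1, a ratio of 9.11-fold lower in replicate 1 (95% exact binomial interval 2.95 to 45.6).

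Nfkbid, an atypical IkB protein, went the other way and rose by 0.85, with 191 and 128 normalized counts at day 3, against 117 and 96.0 at day 1. Irf8, which blocks NFATc1 activity, had 271 and 182 normalized counts at day 3, against 508 and 376 at day 1: all day 3 values were lower, but the difference of -0.69 did not pass (limma adjusted p = 0.0646).

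Of 18 tested fusion genes, 5 rose, 2 fell and 11 did not pass (median 0.09, -0.29 in replicate 2 relative to all genes, 3 of the 5 rises and 1 of the 2 falls kept in the low-mRNA fit). Besides Atp6v0d2, Ocstamp, a membrane protein needed for cell fusion, rose by 2.05, with 842 and 187 normalized counts at day 3, against 186 and 219 at day 1. In replicate 2 Ocstamp lay within the range of the 2 day 1 libraries, 1.56 above the all-gene median. Dcstamp, the other fusion receptor, had 1462 and 462 normalized counts at day 3, against 1599 and 1409 at day 1, and did not pass (difference -0.04). Ocstamp was thus called and Dcstamp was not, and the difference between these 2 genes was not tested.

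In replicate 1 Tm4sf19, a tetraspanin-like protein of osteoclasts, rose by 1.72 (0.05), Siglec15, a sialic acid receptor that signals through DAP12, by 2.98, and Sirpa, the receptor for CD47, by 0.75 (-0.44). Siglec15 had 52.4 and 22.05 normalized counts at day 3, against 5.30 and 6.28 at day 1, so both day 3 libraries were above day 1, whereas replicate 2 had 121 of Tm4sf19, against 368 and 382 at day 1, and 1385 of Sirpa, against 6065 and 5948 at day 1. Bsg, the immunoglobulin-family protein basigin, fell by 0.68 (-1.28), and Cd44, the hyaluronan receptor, by 0.66 (-1.01).

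Bone resorption effectors held some of the strongest rises. Of 21 tested genes, 8 rose, 1 fell and 12 did not pass (median 0.24, 0.01 in replicate 2 relative to all genes, 5 of the 8 rises and 1 of 1 fall kept in the low-mRNA fit). Mmp9, the gelatinase of osteoclasts, had 1143 and 369 normalized counts in day 3 replicates 1 and 2, against 155 and 158 in the day 1 libraries, a rise of 2.86 (SE 0.08, limma adjusted p = 0.000904), and the groups did not overlap. Src, the kinase that organizes the ruffled border, had 770.4 and 147 normalized counts at day 3, against 100.0 and 102 at day 1, and rose by 2.92. The bicarbonate exchanger gene Slc4a2 rose by 1.03 (0.52), and Plekhm1 and Rab7, which act in lysosome traffic, by 0.34 (0.01) and 0.24 (-0.17). The cathepsin gene Ctsl fell by 1.13 (-2.60), in the opposite direction to Ctsk.

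The other effectors did not pass. Car2, the carbonic anhydrase that supplies protons, had 153 and 41.2 normalized counts at day 3, against 188 and 169 at day 1, and Clcn7, the chloride exchanger of the ruffled border, had 732 and 714 normalized counts at day 3, against 625 and 568 at day 1 (limma adjusted p = 0.0551). Slc9b2, a sodium-proton exchanger of osteoclasts, had 129 and 80.8 normalized counts at day 3, against 0.757 and 7.18 at day 1, and differed by 5.10 without passing (limma adjusted p = 0.0532). It is named here after its values were seen. Markers of the mature cell were scarce: Itgb3, the beta 3 integrin chain, had 0 and 6 reads at day 3 and 6 and 0 at day 1, and Oscar, the ITAM-coupled osteoclast receptor, 2 and 4 at day 3 and 1 and 0 at day 1. Calcr, the calcitonin receptor gene, had 0 reads in all 4 libraries, where a count of 0 allows up to 3 reads in each. Transcripts of Acp5, Ctsk and Mmp9 were thus abundant at day 3, while those of the integrin chain, Oscar and the calcitonin receptor were at or near 0 in both libraries.

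Because Acp5 and Ctsk are defining osteoclast effectors and lay above day 1 in both day 3 libraries, the sequences at their transcription starts are shown, from RefSeq on build GRCm38.p6, 250 bases before and 50 after the start. The deposited data were made on mm9, so no coordinate is shared with them. Of 3 Acp5 starts in the table the most downstream is printed, on the minus strand at chr9:22130549-22130848, and Ctsk has 1, on the plus strand at chr3:95498960-95499259. Capitals mark matches on either strand to the NFAT core GGAAA, the MITF motif CATGTG, the E-box CACGTG, the AP-1 motif TGANTCA and the PU.1 motif GAGGAA.
Acp5: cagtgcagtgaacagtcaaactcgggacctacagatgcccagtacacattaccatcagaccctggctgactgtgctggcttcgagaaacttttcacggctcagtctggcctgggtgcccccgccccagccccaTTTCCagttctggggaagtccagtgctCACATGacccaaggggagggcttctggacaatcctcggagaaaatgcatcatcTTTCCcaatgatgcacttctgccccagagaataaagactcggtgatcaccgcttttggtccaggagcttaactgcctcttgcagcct
Ctsk: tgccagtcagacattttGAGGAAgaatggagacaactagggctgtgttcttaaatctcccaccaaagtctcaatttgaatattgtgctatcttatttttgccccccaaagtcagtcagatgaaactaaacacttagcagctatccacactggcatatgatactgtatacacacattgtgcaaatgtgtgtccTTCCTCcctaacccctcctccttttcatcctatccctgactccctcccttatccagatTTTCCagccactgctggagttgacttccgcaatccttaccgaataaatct
The Acp5 window held 2 NFAT cores and 1 CATGTG, and the Ctsk window 1 NFAT core and 2 PU.1 motifs. The windows of the other 2 Acp5 starts, not printed, held 1 NFAT core each and no other motif of these. The printed Acp5 start is thus the one with the most matches, and which start these cells use was not tested. Over 32851 such windows of the table, 61.3% held the NFAT core, 14.2% CATGTG, 28.3% the PU.1 motif, 7.15% CACGTG and 7.81% the AP-1 motif, so the matches are a description of these letters. Nfatc1 and Mitf, the genes for 2 of those factors, rose as given above, and Spi1, which encodes PU.1, rose by 0.36 (1.08).

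Subunits of the vacuolar ATPase rose in replicate 1 more often than they fell. Of 19 tested subunits, 11 rose, 1 fell and 7 did not pass, and 17 were higher in replicate 1 than the day 1 mean, as 54.6% of all genes were, with a median of 0.49 (all genes 0.04). In replicate 2, 15 of the 19 lay below both day 1 libraries, as 79.8% of all genes did, and 3 lay above both, as 17.7% did. The median there was 0.54 relative to all genes. 4 of the 11 rises and 0 of 1 fall passed in the low-mRNA fit too. Tcirg1, the a3 subunit that places the pump at the ruffled border, had 5088 and 4753 normalized counts in day 3 replicates 1 and 2, against 2637 and 2389 in the day 1 libraries, a rise of 1.02 (limma adjusted p = 0.0039). Atp6v1d, a subunit of the central stalk, had 1571 and 1769.7 normalized counts at day 3, against 635 and 643 at day 1, and rose by 1.30. In both genes the 2 day 3 libraries were alike and above day 1. The catalytic subunit gene Atp6v1a rose by 1.07 (1.15), Atp6v1b2 by 0.93 (0.28) and the accessory gene Atp6ap2 by 0.89 (0.30), each with replicate 2 below day 1 on the deposited scale. The subunit gene that fell was Atp6v1h, by 0.24 (-0.36).

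Of 33 tested lysosomal enzymes and membrane proteins, 8 rose, 3 fell and 22 did not pass (median 0.06, -0.36 in replicate 2 relative to all genes, 1 of the 8 rises and 2 of the 3 falls kept in the low-mRNA fit). Ctss, the protease cathepsin S, rose by 1.23 (0.59) and Npc2, a cholesterol carrier, by 0.84 (1.13), while Ctsc, cathepsin C, fell by 0.97 (-2.67) and Ppt1, a lysosomal thioesterase, by 0.99 (-0.73).

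ITAM signalling, the source of the calcium signal, had 5 rises, 2 falls and 14 genes that did not pass among 21 tested (median 0.09, 0.46 in replicate 2 relative to all genes, 2 of the 5 rises and 1 of the 2 falls kept in the low-mRNA fit). Blnk, an adaptor downstream of Syk, had 1000.2 and 334 normalized counts at day 3, against 397 and 373 at day 1, and rose by 1.38, and the kinase genes Syk and Btk rose by 0.88 (-0.30) and 0.48 (-0.32). Clec5a, a DAP12-coupled lectin receptor, had 1435 and 1579 normalized counts at day 3, against 3208 and 3302 at day 1, and fell by 1.18. Its replicate 2 lay 0.63 above the all-gene median, so the direction there depends on the scale. Tyrobp and Fcer1g, the genes of the ITAM adaptors DAP12 and FcR gamma, did not pass, at 0.45 (0.95) and 0.09 (1.37).

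Among 29 tested genes of the sealing zone and podosomes, 7 rose, 5 fell and 17 did not pass (median 0.05, -0.47 in replicate 2 relative to all genes, 1 of the 7 rises and 1 of the 5 falls kept in the low-mRNA fit). Dock5, a Rac activator that osteoclasts need for resorption, rose by 1.08, with 4194 and 362 normalized counts at day 3, against 1926 and 2030.5 at day 1. Ptk2b, the kinase Pyk2 of the podosome belt, fell by 0.88, with 955 and 113 normalized counts at day 3, against 1846 and 1663 at day 1. Replicate 2 was far below day 1 in both genes, at -0.77 and -2.26 relative to the all-gene median. Rac2, the hematopoietic Rac GTPase, rose by 0.96 (0.64), and the integrin gene Itgb1 fell by 0.34 (-1.74).

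**Figure D2:**
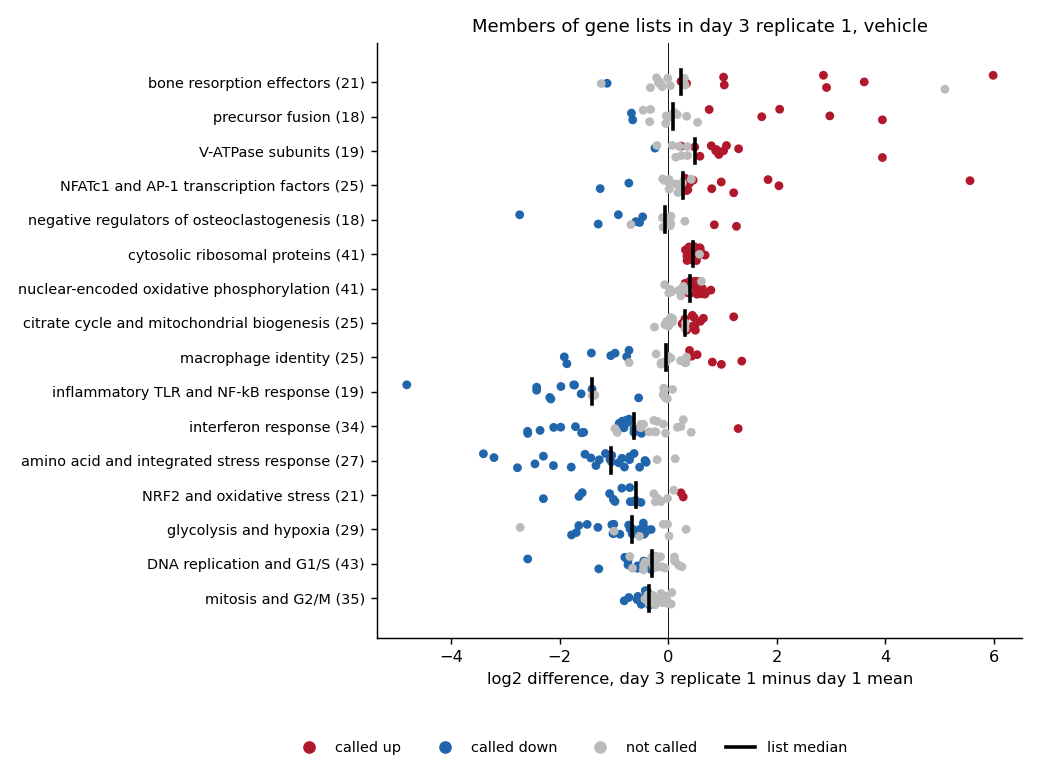
Log2 difference of day 3 replicate 1 from the day 1 mean for the tested members of 16 gene lists (number tested in parentheses). Each point is a gene, red where it rose, blue where it fell and grey where it did not pass, and black bars are list medians. Ribosomal proteins lie in a narrow band above 0 (median 0.46), and stress response genes spread far below it (median -1.05).

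Factors and receptors that couple osteoclasts to bone formation gave falls and no rise. Of 8 tested, 4 fell (median -0.48, -0.75 in replicate 2 relative to all genes, 2 of the 4 falls kept in the low-mRNA fit). Spp1, which encodes osteopontin, had 11679 and 3098 normalized counts in day 3 replicates 1 and 2, against 94676 and 76839.9 in the day 1 libraries. It fell by 2.87 log2 units in replicate 1 (SE 0.15, limma adjusted p = 0.00182), and replicate 2 was -3.10 relative to the all-gene median. Igf1, insulin-like growth factor 1, had 2277 and 1715 normalized counts at day 3, against 8047 and 8099 at day 1, and fell by 1.83. The guidance genes Plxna1 and Sema6d, receptor and ligand, fell by 0.69 (-2.44) and 2.67 (-0.94).

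Chemokine genes divided by member. Of 14 tested, 4 rose, 5 fell and 5 did not pass (median -0.46, -0.28 in replicate 2 relative to all genes, 2 of the 4 rises and 4 of the 5 falls kept in the low-mRNA fit). Besides Ccr1, its ligand gene Ccl9 rose by 0.91, with 17273 and 4355 normalized counts at day 3, against 9248 and 9164 at day 1, and Ccr3, the eotaxin receptor gene, by 3.08, with 114 and 30.9 normalized counts at day 3, against 13.6 and 11.7 at day 1. The inflammatory chemokine gene Ccl4 fell by 1.98, with 88.3 and 23.5 normalized counts at day 3, against 420.3 and 293 at day 1, and Cxcl10 and Ccl2 fell by 2.36 (-3.54) and 2.18 (-2.11). Cx3cr1, the fractalkine receptor gene of macrophages, had 2222 and 2681 normalized counts at day 3, against 5973 and 5901 at day 1, and fell by 1.42. The 2 day 3 libraries were at similar levels on the deposited scale, with replicate 2 at 0.53 above the all-gene median.

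Of 11 tested metalloproteinases and their inhibitors, 2 rose, 4 fell and 5 did not pass (median -0.16, -0.95 in replicate 2 relative to all genes, 2 of the 2 rises and 1 of the 4 falls kept in the low-mRNA fit). Timp2, an inhibitor of metalloproteinases, had 453 and 329 normalized counts at day 3, against 43.9 and 57.4 at day 1, and rose by 3.15 beside Mmp9. Mmp12, the macrophage elastase, had 91.4 and 23.5 normalized counts at day 3, against 489 and 392 at day 1, and fell by 2.25. Adam9 and Adam17, sheddases of surface proteins, fell by 0.84 (-3.22) and 0.61 (-2.25).

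Macrophage identity genes went in both directions. Of 25 tested genes, 7 rose, 7 fell and 11 did not pass (median -0.04, -0.82 in replicate 2 relative to all genes, 1 of the 7 rises and 3 of the 7 falls kept in the low-mRNA fit). Csf1r, the receptor for M-CSF, had 12746 and 2496 normalized counts at day 3, against 10176 and 9266 at day 1, and rose by 0.39, while Itgam, Adgre1 and Mpeg1, all markers of macrophages, did not pass, with differences of -0.09 (0.55), 0.01 and 0.33 (-1.10). Cd14, the lipopolysaccharide co-receptor, had 1973 and 422 normalized counts at day 3, against 7851 and 6617 at day 1, and fell by 1.87. The Fc receptor gene Fcgr1 had 19.5 and 0 normalized counts at day 3, against 82.6 and 70.9 at day 1, and the NADPH oxidase gene Cybb fell by 0.98 (0.69). Csf2rb2 and Csf2rb, near-identical receptor genes whose reads may be shared, rose by 1.35 (0.70) and 0.43 (0.56). Of the markers of the labelled macrophage line, Csf1r, Cd14 and Adgre1 were thus present in all 4 libraries, while Fcgr1 was at 0 in day 3 replicate 2. Adgre1 had 2307 and 146 normalized counts at day 3, against 2377 and 2192 at day 1.

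Most markers of other cell types were scarce. Of 17 lymphocyte and neutrophil markers only S100a8 had enough reads to be tested, and it was not called. Of 17 osteoblast and stromal markers 2 were tested and neither was called. Of 16 dendritic cell markers 6 were tested, of which 4 were higher and 2 lower in replicate 1, with Cd80 at 1.48 (2.43) and Cd74 at -1.45 (-0.01). Zbtb46 had 38.3 and 36.7 normalized counts at day 3, against 25.8 and 24.2 at day 1, a difference of 0.60 (2.22). Flt3 had at most 1 read in any of the 4 libraries. The summed level of the dendritic list was 1511 and 1227 normalized counts at day 3, against 3416 and 3039 at day 1, most of it from Cd74. The part of these markers in the results above was not tested.

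Inflammatory genes were lower. Of 19 tested members of the TLR and NF-kB response, none rose, 11 fell and 8 did not pass, with a median of -1.41 in replicate 1 and -0.997 in replicate 2 relative to all genes. 8 of the 11 falls passed in the low-mRNA fit too. Tnf, the cytokine gene, had 159 and 61.7 normalized counts in day 3 replicates 1 and 2, against 444 and 400.4 in the day 1 libraries, a fall of 1.40 (limma adjusted p = 0.00224). Acod1, which makes itaconate, had 36.7 and 17.6 normalized counts at day 3, against 219 and 186 at day 1, and Clec4e, a receptor for microbial glycolipids, had 723 and 266 normalized counts at day 3, against 2574 and 2276 at day 1. Both fell, by 2.43 and 1.74. Ptges, the prostaglandin E synthase next in line after Ptgs2, fell by 1.73 (-0.39). Il6 had 0 reads in all 4 libraries and Il1b at most 2 in any of them.

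Interferon-response genes were lower as well: of 34 tested, 1 rose, 17 fell and 16 did not pass (median -0.63, -0.83 in replicate 2 relative to all genes, 0 of 1 rise and 5 of the 17 falls kept in the low-mRNA fit). Ifit2, an RNA-binding antiviral protein, had 57.8 and 1.47 normalized counts at day 3, against 217 and 247 at day 1, and fell by 1.98. Ifit1, of the same family, had 4.69 and 1.47 normalized counts at day 3, against 38.6 and 28.7 at day 1, and Oas3, a sensor of double-stranded RNA, fell by 0.82 (-1.62). Irf7, a driver of the interferon response, fell by 0.78 (-0.10) and Isg15, the ubiquitin-like modifier, by 2.11 (-4.01). The gene that rose was Gbp7, an interferon-inducible GTPase, by 1.29 (2.13).

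The amino acid and integrated stress response fell almost as a whole. Of 27 tested genes, 25 fell, none rose and 2, Cebpg and Slc1a5, did not pass. The median was -1.05 in replicate 1 and -1.30 in replicate 2 relative to all genes. 14 of the 25 falls passed in the low-mRNA fit too. Atf4, the transcription factor at the centre of this response, had 1589 and 1639 normalized counts in day 3 replicates 1 and 2, against 2853 and 2713 in the day 1 libraries. It fell by 0.81, with both day 3 libraries alike on the deposited scale. Replicate 2 carries the shift of the whole library on that scale, so the fall is read from replicate 1.

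Targets of ATF4 on the list include transporters and enzymes of amino acid supply. Slc7a11, the cystine transporter, had 227 and 79.4 normalized counts at day 3, against 1192 and 1054 at day 1, and fell by 2.30 (limma adjusted p = 0.00112). Asns, asparagine synthetase, had 662 and 82.3 normalized counts at day 3, against 1800.3 and 1759 at day 1, and Mthfd2, of mitochondrial folate metabolism, had 956 and 287 normalized counts at day 3, against 2861 and 2686 at day 1. Pck2, mitochondrial phosphoenolpyruvate carboxykinase, had 158 and 86.7 normalized counts at day 3, against 737 and 642 at day 1, and fell by 2.12. Serine synthesis genes moved with them: Phgdh, Psat1 and Psph fell by 1.16 (-2.95), 0.85 (-2.67) and 1.27 (-2.79). Replicate 2 was the lower of the 2 day 3 libraries in Slc7a11, Asns, Mthfd2 and Pck2.

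Other stress programmes moved less. In the unfolded protein response 5 of 19 genes fell and none rose (median -0.20, -0.35 in replicate 2 relative to all genes, 0 of the 5 falls kept in the low-mRNA fit), led by the disulfide isomerase gene Pdia6 at -0.39 (-1.11), and Hspa5, the chaperone BiP, did not pass, at -0.08 (-0.02). Of 21 tested NRF2 and oxidative stress genes 12 fell, 2 rose and 7 did not pass (median -0.60, -1.34 in replicate 2 relative to all genes, 0 of the 2 rises and 6 of the 12 falls kept in the low-mRNA fit). Cat, catalase, had 1566 and 201 normalized counts at day 3, against 5043 and 4382 at day 1, and fell by 1.59, Me1, malic enzyme, fell by 1.65 (-2.21) and Gclm, of glutathione synthesis, by 0.86 (-1.79). The 2 that rose were Nfe2l2, which encodes NRF2 itself, by 0.28 (0.36) and Sod2, the mitochondrial superoxide dismutase, by 0.23 (-0.95). In sterol and fatty acid synthesis 8 of 27 genes fell and none rose (median -0.24, -0.94 in replicate 2 relative to all genes, 0 of the 8 falls kept in the low-mRNA fit).

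Glycolytic and mitochondrial genes gave calls on opposite sides in replicate 1. Of 29 tested glycolysis and hypoxia genes 22 fell, none rose and 7 did not pass, with a median of -0.67 in replicate 1 and -1.85 in replicate 2 relative to all genes. 9 of the 22 falls passed in the low-mRNA fit too. Slc2a1, the glucose transporter GLUT1, had 992 and 82.3 normalized counts in day 3 replicates 1 and 2, against 3257 and 2978 in the day 1 libraries, a fall of 1.65 (limma adjusted p = 0.00189). Bnip3, a mitophagy receptor induced by hypoxia, had 1548 and 45.6 normalized counts at day 3, against 4989 and 5039 at day 1, and fell by 1.69. Vegfa, the angiogenic factor, had 148 and 20.6 normalized counts at day 3, against 507 and 514 at day 1. The glycolytic enzyme genes Hk2 and Ldha fell by 0.89 (-0.12) and 0.65 (-2.42).

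Of 41 tested nuclear genes of oxidative phosphorylation 29 rose, none fell and 12 did not pass, and 40 were higher in replicate 1. Of all tested genes, 54.6% were higher in replicate 1 than the day 1 mean. The rises were small, with a median of 0.40 and a largest difference of 0.79. Sdhd, of complex II, had 2449 and 353 normalized counts at day 3, against 1539 and 1505 at day 1, and rose by 0.69, and Ndufa4, of the respiratory chain, had 1600.2 and 576 normalized counts at day 3, against 988 and 1014 at day 1, and rose by 0.68. Replicate 2 lay below day 1 in both genes on the deposited scale, and the list's median there was 0.03 relative to all genes. None of the 29 rises passed in the low-mRNA fit. In the citrate cycle and mitochondrial biogenesis 14 of 25 genes rose and none fell (median 0.30, -0.71 in replicate 2 relative to all genes, 1 of the 14 rises kept in the low-mRNA fit), while in replicate 2 24 of the 25 lay below both day 1 libraries. Of all tested genes, 79.8% lay below both day 1 libraries in replicate 2. Among the rises of the citrate cycle list were those of Cs, citrate synthase, by 0.26 (-1.29) and Esrra, the partner of Ppargc1b, by 0.34 (0.79).

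Ribosomal protein genes rose almost without exception in replicate 1: of 41 tested 40 rose, and Rpl13 did not pass. The differences of all 41 lay between 0.32 and 0.68, with a median of 0.46, and in replicate 2 the median was 1.07 relative to all genes. Rps12 had 6806 and 4130.2 normalized counts at day 3, against 4307 and 4191 at day 1, and Rpl37 had 3151 and 2588 normalized counts at day 3, against 2103 and 2093 at day 1. None of the 40 rises passed in the low-mRNA fit, and ribosomal protein genes have many processed pseudogenes with which reads may be shared.

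**Figure D3:**
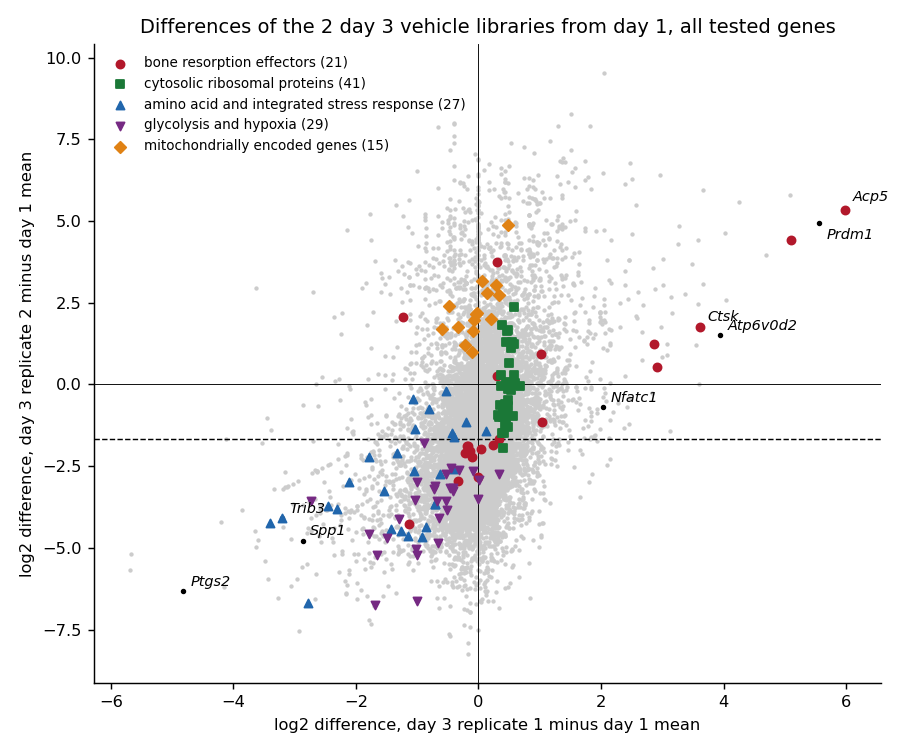
Log2 difference from the day 1 mean of day 3 replicate 2 (vertical) against that of replicate 1 (horizontal) for 14715 genes in grey, with 5 gene lists in colour. Both axes share the day 1 libraries. The dashed line is the median of replicate 2, -1.68. Mitochondrially encoded genes (orange) lie high in replicate 2 and near 0 in replicate 1, and Acp5 is the labelled gene furthest to the right.

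Proliferation genes gave falls and no rise. Of 43 tested genes of DNA replication and G1/S 18 fell, none rose and 25 did not pass (median -0.30, -1.02 in replicate 2 relative to all genes, 3 of the 18 falls kept in the low-mRNA fit). Ccnd2, cyclin D2, had 29.7 and 13.2 normalized counts at day 3, against 196 and 172 at day 1, and fell by 2.59, the largest fall on that list. Ccnd1, cyclin D1, had 4463 and 5503 normalized counts at day 3, against 7503 and 7432 at day 1. Replicate 2 of Ccnd1 lay 1.24 above the all-gene median. E2f2, an S phase transcription factor, had 131 and 106 normalized counts at day 3, against 322 and 319 at day 1, with both day 3 libraries below day 1. Of 35 mitosis and G2/M genes 13 fell, none rose and 22 did not pass (median -0.35, -1.48 in replicate 2 relative to all genes, 1 of the 13 falls kept in the low-mRNA fit). Anln, which acts in cytokinesis, fell by 0.81 (-2.94) and Cdk1, the mitotic kinase, by 0.40 (-2.64), while Mki67 did not pass, at -0.29 (-0.28).

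Replicate 2 of day 3 differed from replicate 1 above all in RNA classes. All 15 mitochondrially encoded genes lay above both day 1 libraries in replicate 2, with a median difference of 2.15, whereas in replicate 1 the median was -0.05 and none was called. The small-subunit ribosomal RNA gene mt-Rnr1 had 9380.4 and 197341 normalized counts at day 3, against 6673 and 6688 at day 1. Malat1, an abundant nuclear noncoding RNA, had 48762 and 1774960 normalized counts at day 3, against 27781 and 28650.4 at day 1, which is 0.384% and 14.0% of reads at day 3, against 0.219% and 0.225% at day 1. Kcnq1ot1, a nuclear imprinting RNA, had 1006 and 14729 normalized counts at day 3, against 369.6 and 456 at day 1, and rose by 1.29 in replicate 1 too. Of 20 tested replication-dependent histone genes, whose mRNAs mostly lack a poly(A) tail, 10 were higher and 9 lower than the day 1 mean in replicate 1. In replicate 2, 16 lay above both day 1 libraries, as 17.7% of all tested genes did. The filter on group means lets in scarce genes that are high in replicate 2 only. Hist1h1d, for instance, had 0.781 and 23.5 normalized counts at day 3, against 2.27 and 4.49 at day 1. The count of 16 thus depends in part on that filter. Whether RNA quality or handling of that library gave its values was not tested.

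The same interval in cells with supernatant offers 4 further libraries with their own day 1, though supernatant was added there. They are not independent of the vehicle libraries: at day 3, libraries of the same number deviated together in both arms (correlation across genes of deviations from the group means 0.899). Of the 1402 genes that rose in vehicle replicate 1, 1346 (96.0%) were higher in supernatant day 3 replicate 1 than in the mean of supernatant day 1, against 57.9% of all tested genes. Of the 1353 that fell, 1284 (94.9%) were lower there. Acp5 had 742 and 814 normalized counts at day 3 with supernatant, against 25.8 and 24.0 at day 1, and Nfatc1 had 5354 and 1198 at day 3, against 1355 and 1236 at day 1. Trib3 had 44.6 and 37.8 at day 3 with supernatant, against 355 and 302 at day 1. For these 3 genes replicate 1 with supernatant lay on the same side of day 1 as replicate 1 in vehicle.

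The medians of both cell cycle lists lay apart between the arms, a difference that was not tested. The G1/S list had a median of 0.16 in supernatant replicate 1 and -0.30 in vehicle replicate 1, and the G2/M list -0.02 with supernatant and -0.35 in vehicle. Cx3cr1 differed by -0.24 in supernatant replicate 1 and by -1.42 in vehicle replicate 1, a pair of values named after they were seen. The stress response list lay low in both, at -1.21 in supernatant and -1.05 in vehicle.

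Levels at day 5 without supernatant, given as values only, depended on the library. Acp5 had 12.1 and 20.6 normalized counts at day 1, 1068 and 675 at day 3 and 35.9 and 1231 at day 5, replicate 1 first. Prdm1 had 2.27 and 0 at day 1, 84.4 and 54.4 at day 3 and 3.68 and 62.2 at day 5. For Spp1 the values were 94676 and 76839.9 at day 1, 11679 and 3098 at day 3 and 100880 and 10356 at day 5. In replicate 1 these 3 genes were nearer to day 1 at day 5 than at day 3. In replicate 2 Acp5 and Prdm1 stood above day 1, and Spp1 below it, at both later days.

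**Figure D4:**
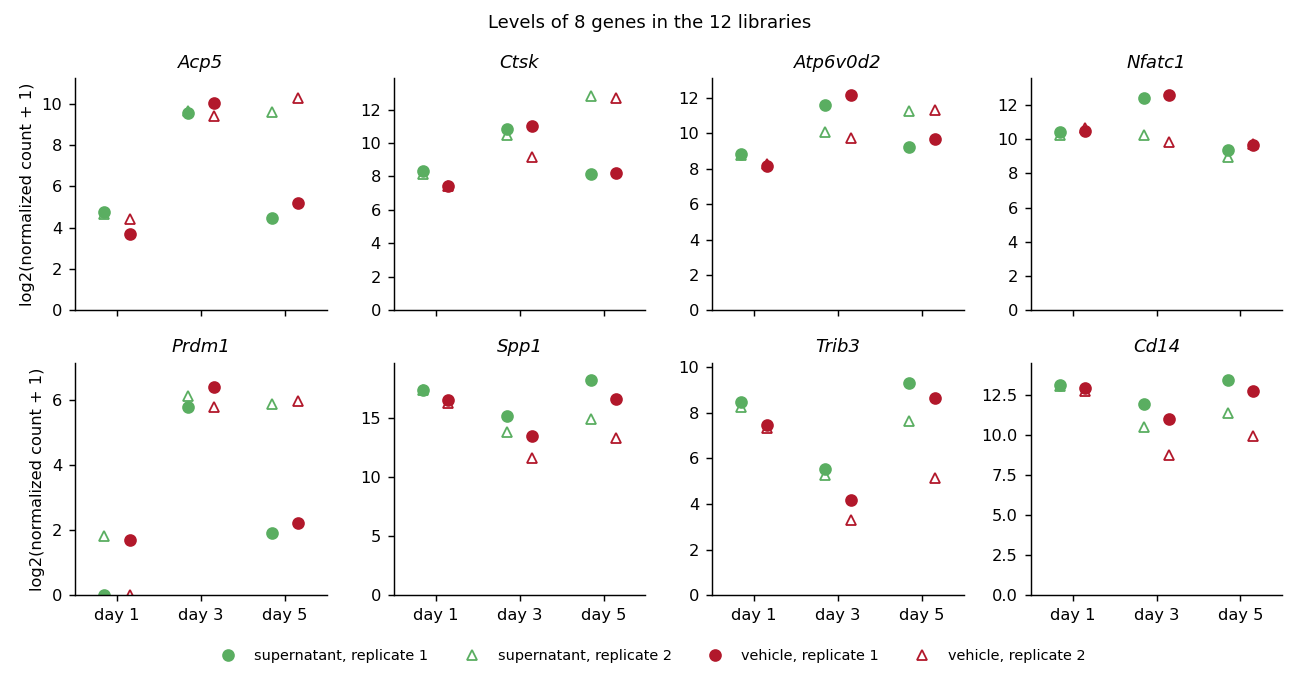
Levels of 8 genes as log2(normalized count + 1) in all 12 libraries by day, supernatant in green and vehicle in red, circles for replicate 1 and open triangles for replicate 2. In vehicle, Acp5 is higher in both libraries of day 3 (1068 and 675 normalized counts) than in those of day 1 (12.1 and 20.6), and replicates 1 and 2 part at day 5.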

How the data were processed

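RNA of 12 RAW264.7 libraries, in 6 groups of 2, was extracted in Trizol and made into libraries with a TruSeq RNA kit, per the labels' protocols. TopHat2, SAMtools, DESeq2 and build mm9 are named in the submitters' processing notes; for versions, annotation, counting and strand, nothing is given in the sources used here. The values the authors deposited are log2(normalized count + 8) per Ensembl gene, and undoing them gave whole multiples of 1 read, within 0.02 reads, for 100% of values above 0. Of 24757 table lines, 993 repeated an ID and were dropped, leaving 23764 genes, of which 23315 had a symbol in the RefSeq reference. Because the unit is log2 and not counts, limma 3.58.1 in R 4.3.3 was fitted to log2(normalized count + 1) with mean-variance trend and Benjamini-Hochberg adjustment over 14715 genes, those with a mean of at least 10 in at least 1 of the 6 groups. Genes under that filter were not tested.

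Each library of days 3 and 5 had its own coefficient, so spread came from the day 1 groups alone (2 residual degrees of freedom). A second fit took both day 3 libraries as 1 group (6 degrees of freedom), and a further fit added a term for replicate 2 within days 3 and 5 (4 degrees of freedom). Named genes are the 10 highest and 10 lowest log2 differences that passed an adjusted p of 0.05 both in the first fit and in the one with that term, with at least 50 normalized counts in the higher group, and replicate 2 beyond both day 1 libraries on the same side, up to 5 genes of smallest p from each list, and 22 genes chosen by role, not all of which are reported here. Other genes were chosen after their values were seen: Traf6, Fosl1, Spi1, the NF-kB subunits, Cd44, Siglec15 as a fusion gene, Plekhm1, Rab7, Ctsl, Slc9b2, Atp6v1h, Tyrobp, Fcer1g, Itgb1, Cxcl10, Ccl2, Itgam, Adgre1, Mpeg1, Fcgr1, Cybb, Csf2rb, Ptges, Irf7, Isg15, Gbp7, Cebpg, Slc1a5, Atf4, Phgdh, Psat1, Psph, Hspa5, Nfe2l2, Sod2, Hk2, Ldha, Cs, Esrra, Rpl13, Mki67 and the genes named as absent. The members and the gene lists were chosen with earlier results of these data known. Alternatives were other scalings, filters, pseudocounts and libraries, limma-voom on recovered reads, and terms for the replicate number. Figures were drawn with matplotlib 3.10.9. Intervals on reads cover counting error only, since the reads carry no molecular identifiers.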

Additional observations from a re-analysis of the deposited data

How the results depend on the processing

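The count of 2755 genes called in day 3 replicate 1 lay between 1838 without a filter and 3644 with a filter at a mean of 50 over the other scalings, filters and pseudocounts, and was 2898 with only the 8 libraries that are not replicate 2 of days 3 and 5. Without a filter 60.6% of calls were higher, against 50.9% in the count of 2755. It was 1184 with only the 4 vehicle libraries and 4167 in limma-voom on recovered reads. Leaving out 1 library gave 0 to 2795 calls, with 0 (4182 and 4119 genes at an unadjusted p under 0.05) without vehicle day 1 replicate 1 or 2, 1071 and 1072 without supernatant day 1 replicate 1 or 2, and 2795 without vehicle day 3 replicate 2. Replicate 2 of day 3 had 13027 calls, and 11122 to 13309 under its alternatives.

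Same-numbered libraries of vehicle days 1 and 3 did not deviate together (correlation of deviations 0.066). That value cannot tell whether the numbers pair them, because the day 3 deviations carry the gap between replicate 1 and the low-mRNA replicate 2. Same-numbered libraries of the 4 groups of days 3 and 5 did deviate together (0.782 to 0.899). A replicate block over all days gave 3223 calls. With a replicate block by day, a term for replicate 2 of days 3 and 5, replicate 1 had 423 calls, 30.3% of them higher, of which 421 were shared with the 2755 in the same direction. The fit of both day 3 libraries, with 0 calls, gave 10047 under that block. The causes of these changes were not tested, except that fewer libraries leave fewer degrees of freedom.

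Of the recomputed values of genes named for size or by role, 540 kept direction and side of the threshold, 85 lost the call and 16 gained it. The other 2 did not keep their sign: Dcstamp crossed 0 and Itgb3 went to 0. Leaving out 1 library gave Dcstamp -0.13 to 0.053 and Itgb3 -2.47 to 0, the upper values without vehicle day 1 replicate 1. Depth limits Itgb3, Oscar, Calcr and Id3, which had few or no reads, and the 629 tested genes at 0 in day 3 replicate 2.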

Other observations

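Cell survival genes, a list of 23 tested, gave 3 rises and 3 falls in day 3 replicate 1 (median -0.02, -0.88 in replicate 2 relative to all genes, 1 of the 3 rises and 1 of the 3 falls kept in the low-mRNA fit). Bmf, a pro-apoptotic BH3-only protein, had 284 and 33.8 normalized counts at day 3, against 59.1 and 62.8 at day 1, and rose by 2.20 log2 units. Bcl2, the survival protein, had 189.9 and 187 normalized counts at day 3, against 382 and 374 at day 1, and fell by 0.99. Replicate 2 of Bcl2 lay 0.66 above the all-gene median. Mcl1, another survival protein, rose by 0.53 (-0.34). Of 19 tested p53 targets 4 rose and 5 fell (median 0.03, -0.23 in replicate 2 relative to all genes, 1 of the 4 rises and 2 of the 5 falls kept in the low-mRNA fit), among them Ddit4, an inhibitor of mTORC1 that other stresses induce too, which fell by 2.46 (-2.05), Mdm2, which degrades p53 and fell by 0.78 (-1.51), and Sesn1, which rose by 1.01 (0.94).

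Iron genes went in both directions. Of 14 tested 4 rose, 5 fell and 5 did not pass (median -0.29, -1.13 in replicate 2 relative to all genes, 0 of the 4 rises and 3 of the 5 falls kept in the low-mRNA fit). Slc40a1, the iron exporter ferroportin, had 233 and 30.9 normalized counts at day 3, against 1209.5 and 987 at day 1, and fell by 2.23, and Fth1, the ferritin heavy chain, fell by 1.01 (-1.14). Hmox1, the enzyme that frees iron from heme, fell by 1.08 (-3.40). Among 8 tested nuclear long noncoding RNAs 5 rose and none fell in replicate 1 (median 0.78, 1.47 in replicate 2 relative to all genes, 1 of the 5 rises kept in the low-mRNA fit), including Gas5 at 0.90 (1.59) and Pvt1 at 1.09 (1.36), whereas Malat1 did not pass.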
